A study of Drosophila melanogaster with 3 samples.

Results

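At a promoter that serves 1 direction of transcription, a bound protein can be recovered from the DNA before the transcription start site (TSS) or from the DNA of the transcribed side. The peaks described here are of the second kind: 924 of the 8708 thresholded CG15514 peaks on genome build dm6, or 10.6% (95% Clopper-Pearson interval 9.97% to 11.3%). They were selected on 3 deposited or derived values. The peak signal was below 5000, the summit lay at or downstream of the nearest protein-coding TSS and within 500 bp of it, and the summit did not lie between a minus-strand TSS on its left and a plus-strand TSS of another gene on its right, both within 500 bp. The 924 peaks belonged to 875 genes, which is 6.27% of the 13945 annotated protein-coding genes. Selection on height and position means that the counts, heights and distances in the thresholded list are a description and not a finding.

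CG15514 is a Drosophila melanogaster gene, and the flies carried it as a transgene with eGFP, a green fluorescent protein used as a tag, at the C-terminal end of the protein. Chromatin of whole embryos of both sexes, collected from 0 to 24 hours of age, was sheared by sonication to between 200 and 800 bp, precipitated with an antibody against GFP and sequenced (ChIP-seq). There was 1 group of 3 biological replicates from 1 transgenic line, every sample carried the tagged gene, and no list from an untagged or mock sample was used here. Each peak therefore averages over all cell types and ages of the embryo, and read counts are not part of the lists, which leaves the depth of each sample unknown. Intervals given for shares cover only the counting error over peaks or genes, and replicates of 1 line measure the spread between collections of that line.

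The core promoter is the DNA around a TSS on which RNA polymerase II and the general transcription factors assemble. In Drosophila, promoters of broadly expressed genes often hold the DNA replication-related element (DRE), which the factor Dref binds, or the Ohler 1 element, which M1BP binds. Promoters of developmentally regulated genes more often hold an initiator at the start site, a TATA box upstream of it or GAGA elements bound by the GAGA factor Trl. Downstream of the TSS lie the 5' UTR and, in many genes, the first intron, where polymerase commonly pauses and where further regulatory sequence can lie.

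The sequences within 100 bp of these summits differed with the distance of the summit from the TSS, and sites of 3 elements are shown because the results below turn on them. The sites are, for each element, those of the 3 members of highest signal among the arms shown, at the match closest to the summit. All are written 5' to 3' along the strand of the gene on build dm6, with the matched letters in capitals. The DRE, TATCGATA, is its own reverse complement and is shown for CG17292 (chr2L:8370407-8370436, plus strand, centre 32.5 bp before the TSS), Karybeta3, an importin (chr3R:4649356-4649385, plus strand, centre 16.5 bp after the TSS), and wek, a zinc finger adaptor of Toll signalling (chr2L:15768372-15768401, minus strand, centre 37.5 bp before the TSS).
CG17292, DRE: agctagactgaTATCGATAggcgccaaaca
Karybeta3, DRE: cagtcgcgtttTATCGATAacggcggagca
wek, DRE: tgttttgcactTATCGATAtttccaaaaat

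The core of the Ohler 1 element, GGTCACAC, is shown for kel, which encodes the ring canal protein Kelch (chr2L:18138032-18138061, minus strand, 36.5 bp after the TSS), mRpL48, a protein of the mitochondrial ribosome (chr2L:1710432-1710461, plus strand, 15.5 bp before the TSS), and P5cr, an enzyme of proline synthesis (chr3R:19028886-19028915, plus strand, 30.5 bp before the TSS). At mRpL48 the element is on the strand opposite to the gene and reads as its reverse complement.
kel, Ohler 1: aacccgaggctGGTCACACtgctctggtcg
mRpL48, Ohler 1: cgcttgagccaGTGTGACCatggagccggc
P5cr, Ohler 1: acagaatatctGGTCACACcaaagctcaga

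The third is the heptamer GAACCAG or GAACTAG, which lay within 100 bp of 144 of the 202 summits with a signal of 5000 or more (71.3%), the peaks that the signal limit left out. It is shown for CG32767 (chrX:5084332-5084360, minus strand, 422 bp after the TSS), lace, a subunit of serine palmitoyltransferase in sphingolipid synthesis (chr2L:15499529-15499557, plus strand, 416 bp after the TSS), and brat, a translational repressor and tumour suppressor (chr2L:19158521-19158549, plus strand, 5 bp before the TSS). At lace and brat it reads as its reverse complement.
CG32767, heptamer: gaaaaacaaaaGAACTAGttctcttttct
lace, heptamer: tggttccatagCTGGTTCcattcaccctc
brat, heptamer: tcttcgccatgCTGGTTCattctcattca

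The 2 intronic summits, at CG32767 and lace, are shown in wider windows of 121 bases centred on the summit, because they were the 2 strongest members more than 200 bp inside a gene. At CG32767 (chrX:5084293-5084413, minus strand) 2 matches on opposite strands overlapped in a palindrome of 10 letters, all in capitals. At lace (chr2L:15499493-15499613, plus strand) there was 1 match, in capitals, and a CTCTC and its reverse complement GAGAG followed it.
CG32767, intron: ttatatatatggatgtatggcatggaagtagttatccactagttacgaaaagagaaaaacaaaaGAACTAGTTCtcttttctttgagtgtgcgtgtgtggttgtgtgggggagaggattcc
lace, intron: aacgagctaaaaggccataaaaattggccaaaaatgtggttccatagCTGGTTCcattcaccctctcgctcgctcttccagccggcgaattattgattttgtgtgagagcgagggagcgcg

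Downstream summits were the minority at promoters of 1 direction, and most lay close to the TSS. Of the 3710 thresholded peaks at such promoters, 24.9% were downstream (95% interval 23.5% to 26.3%) and 2786 were upstream. The same rule, applied in each replicate list to the 8708 strongest entries without the top 202, found 953, 1113 and 985 downstream peaks in replicates 1, 2 and 3, or 26.9% ± 1.55 of single-direction entries (mean and SD, n = 3). Each of the 3 lists thus held fewer downstream than upstream peaks.

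Among the 924, the median distance from the TSS was 42.5 bp, with quartiles of 15.75 and 111.25 bp, and 17 summits lay exactly at the TSS. Upstream summits lay farther out, at a median of 80.5 bp. Within 20 bp of the TSS the 2 sides were nearly even, with 281 downstream and 302 upstream summits (48.2% downstream). The downstream share was 25.8% at 21 to 50 bp, 20.4% at 51 to 100 bp, 18.7% at 101 to 200 bp and 16.7% at 201 to 500 bp.

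**Figure D1:**
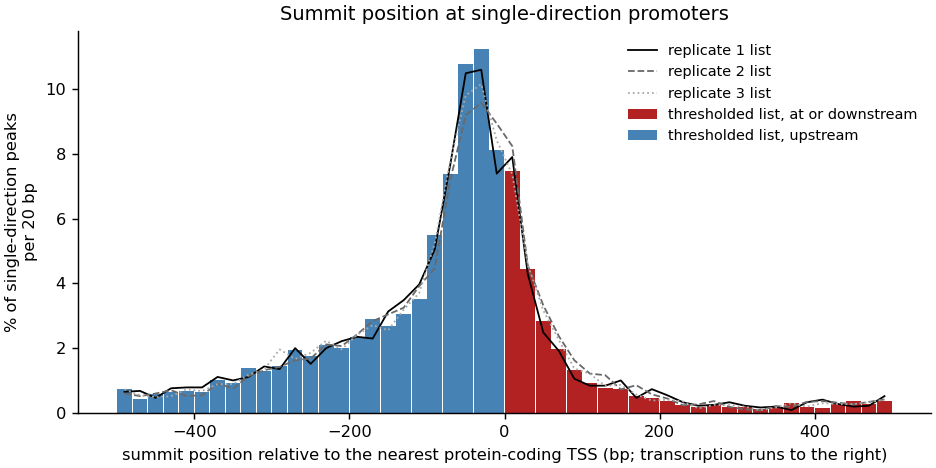
The plot gives the position of each summit relative to the nearest protein-coding TSS (horizontal axis, bp) against the percent of single-direction peaks in each 20 bp (vertical axis), as bars for the thresholded list and lines for the 3 replicate lists. The distribution peaks just upstream of the TSS in all 4 lists, and 281 of the 924 downstream summits lie within 20 bp of it.

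No peak that met the rest of the rule had a signal between the strongest member and the limit of 5000. The peaks next above the signal limit lay at Mcm2 (a subunit of the replicative helicase, signal 5857, 13 bp downstream), rdgB (a phosphatidylinositol transfer protein, 5883, 24 bp) and TRAM (a protein of the translocon, 8433, 78 bp), and the member next below it was Pect at 4329.8. The members farthest out were DopEcR, a receptor for dopamine and ecdysteroids, at 498 bp and CG7987 at 499 bp. The first ones beyond the limit were FucTC, a fucosyltransferase, at 501 bp and CG31523 at 504 bp.

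The 12 strongest members had signals from 2194 to 4329.8 and summits from 2 to 426 bp downstream of the TSS. Pect, an enzyme of phosphatidylethanolamine synthesis (FBgn0032482, gene at 2L 13203762 to 13210828), had a peak from 13203617 to 13204169 with its summit at 13203903 in the 5' UTR, 141 bp from the TSS. Its signal was 953, 1149 and 2241 in replicates 1, 2 and 3, at ranks 229, 204 and 210, and the replicate summits lay 143, 141 and 151 bp downstream. All 3 replicates thus placed it within 10 bp. The gene eas, which encodes ethanolamine kinase, had a signal of 2352 in the thresholded list and summits 6 bp downstream, 6 bp upstream and 3 bp downstream in the 3 replicates. The side of the TSS was not fixed there.

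CG17233 had a signal of 3817 at an intronic summit, 131 bp downstream, but TSSs of CG6951 and of the clathrin light chain gene Clc lay within 500 bp too, so that peak cannot be given to 1 gene. Dnz1, a palmitoyltransferase of the DHHC family, had 3768 at 2 bp from the TSS, with replicate summits at 0, 2 bp upstream and 5 bp downstream. CG9727 had 3612 in an intron, and its replicate summits lay 122, 119 and 101 bp downstream. These last 3 peaks show the range among the strongest members, from a summit on the TSS to one inside an intron.

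CG32767 (FBgn0052767, gene at X 5071027 to 5084768, minus strand) had its summit at 5084353, 415 bp into the gene, in an intron of every transcript that spans it. Its signal was 779, 791 and 1756 in the 3 replicates, with summits 416, 419 and 423 bp downstream. At lace (FBgn0002524, gene at 2L 15499127 to 15505018) the summit at 15499553 was intronic as well, with signals of 730, 510 and 1209 at 422, 428 and 424 bp. Both sites kept their place within 10 bp over the replicates. These are the 2 peaks whose palindrome and heptamer are printed above.

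The other members among the 12 strongest were CG42815 (3223, in a coding exon 156 bp downstream), CG32647 (2562, 53 bp), Pi3K59F (2378, 4 bp), Ugt303B2 (2285, 25 bp) and Hakai (2194, 11 bp). Pi3K59F encodes the class III phosphatidylinositol 3-kinase, Ugt303B2 a UDP-glycosyltransferase and Hakai an E3 ubiquitin ligase of the complex that methylates adenosine in RNA. At the other end stood qkr58E-2, a member of the quaking family of RNA-binding proteins, at 119 and rank 8707. Its replicate summits lay 59 bp upstream, 49 bp downstream and 88 bp downstream. The member of median signal, CG17036, had 204, with replicate summits 99, 50 and 3 bp downstream. The CG17036 summits were thus spread more widely than those of Pect, CG32767 and lace. Whether the placement of summits varies with peak height was not tested.

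Downstream peaks were lower than upstream ones. The median signal was 204 for the 924 (quartiles 152 and 311, range 119 to 4329.8), against 269 for upstream peaks and 319 for peaks between diverging promoters. In the replicate lists the downstream and upstream medians were 48.7 and 64.6 in replicate 1, 50.3 and 64.9 in replicate 2, and 114 and 144 in replicate 3. Signal has no common scale between lists, so only the ratio within each list is compared. That ratio was 0.774 ± 0.0193 (mean and SD, n = 3), or -0.37 ± 0.036 on the log2 scale, and lower downstream in 3 of 3 replicates (exact two-sided sign-flip permutation test, p = 0.25). With 3 replicates 0.25 is the smallest p this test can give, so it cannot pass a threshold here, and the 3 lists enter the list from which the members were chosen.

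The gap in height depended on the distance. At 0 to 20 bp the downstream median was 0.895 ± 0.0233 of the upstream one over the replicates, at 51 to 100 bp 0.682 ± 0.0337, and at 201 to 500 bp 0.893 ± 0.019. In the thresholded list the medians at 201 to 500 bp were 222 downstream and 221 upstream. The lowest ratios, 0.722 ± 0.00714, 0.682 ± 0.0337 and 0.677 ± 0.0784, thus lay at 21 to 200 bp. The distance classes were set after the data had been seen.

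**Figure D2:**
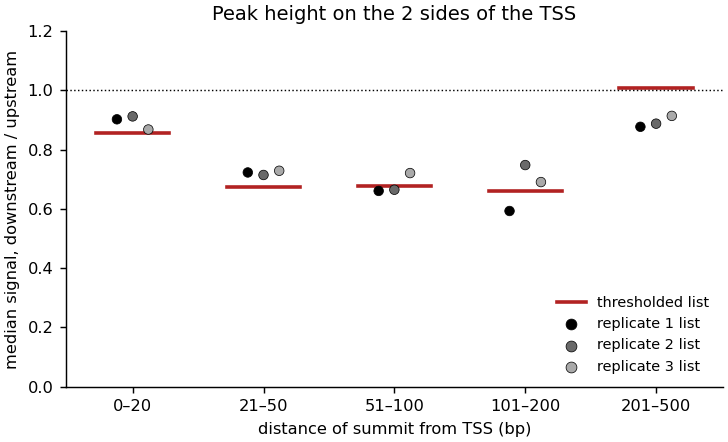
The plot gives the median signal of downstream peaks divided by that of upstream peaks (vertical axis, ratio within a list) by distance of the summit from the TSS (horizontal axis, bp), with points for the 3 replicate lists and a bar for the thresholded list. Every replicate point lies below 1, lowest at 21 to 200 bp, and the bar of the thresholded list at 201 to 500 bp lies at about 1.

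Downstream peaks were also found again less often. All 3 replicate lists, each taken to its strongest 8708 entries, had a summit within 100 bp for 529 of the 924, or 57.3% (95% interval 54.0% to 60.5%), against 64.2% of all thresholded peaks. The share was 71.2% for upstream peaks (69.5% to 72.9%) and 77.9% for peaks between diverging promoters. Replicates 1, 2 and 3 held 73.5%, 79.8% and 87.2% of the 924. Support followed height: among members in the stronger 50% of thresholded peaks it was 95.6%. Support counts only the strongest entries of lists from the same 3 samples, so its definition sets part of this link. The part that lower signal plays in the difference between the sides was not tested. By distance the gap between the sides was widest at 21 to 200 bp, and at 201 to 500 bp the shares were 59.2% downstream and 58.2% upstream.

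The side of the TSS was less repeatable near it than far from it. An entry within 100 bp was present in all 3 whole replicate lists for 764 members, and in 504 of these, or 66.0% (62.5% to 69.3%), all 3 replicate summits were again at or downstream of the same TSS. For upstream peaks the corresponding share was 88.8% (87.5% to 90.0%). Beyond 100 bp both sides stood at 100%, which the search distance fixes, and more of the upstream summits lay there, so the sides are compared by distance. At 0 to 20 bp 32.8% of downstream and 50.4% of upstream peaks kept their side in all 3 replicates. At 21 to 50 bp the shares were 56.8% and 82.6%, and at 51 to 100 bp 88.7% and 93.5%. Replicate summits lay a median of 19, 16 and 6 bp from the thresholded summit in replicates 1, 2 and 3, which is as far as many members lie from their TSS. In 15 members all 3 replicate summits were upstream. Because the thresholded list was made from the same 3 samples, these shares measure repeatability and are no independent support.

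**Figure D3:**
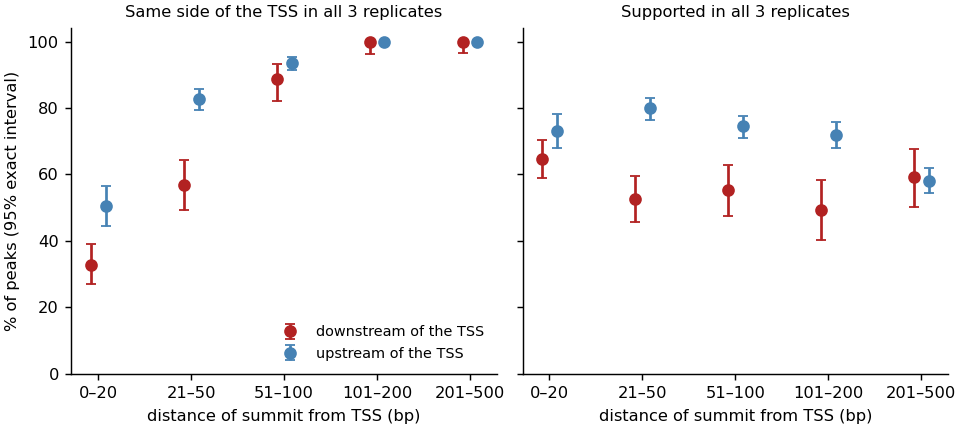
The left panel gives the percent of peaks whose 3 replicate summits lie on the same side of the TSS, and the right panel the percent supported in all 3 replicates (vertical axes, with 95% exact intervals), by distance of the summit from the TSS (horizontal axes, bp). Same-side shares of downstream peaks go from 32.8% within 20 bp to 88.7% at 51 to 100 bp. Support is lower downstream than upstream in each class up to 200 bp, with overlapping intervals at 0 to 20 bp (64.8% and 73.2%).

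Most members lay in 5' UTR sequence. The summit of 767 of the 924 (83.0%, 80.4% to 85.4%) was in a 5' UTR exon of at least 1 transcript, that of 121 (13.1%) was intronic in every transcript that spans it, and that of 40 (4.33%) was in a coding exon of at least 1 transcript. The rule's position limit sets much of this, since 496 of the members lay within 50 bp of a TSS. Intronic summits were 22.6% of members at 101 to 200 bp and 62.3% at 201 to 500 bp. Examples from the gene groups were hb, the gap gene hunchback, whose intronic summit lay 340 bp downstream with signals of 74.2, 75.0 and 195 in the 3 replicates, and Mer, the Merlin tumour suppressor, at 93 bp with 103, 112 and 284.

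The genes of downstream members had alternative start sites more often than those of upstream members. The side was called from the nearest of all annotated TSSs, so the number of TSSs enters the rule and this difference is a description. In the thresholded list 44.9% of the 875 genes had a single annotated TSS, against 54.9% of the 2461 genes of upstream peaks. The replicate lists gave 48.1% and 55.3%, 47.4% and 53.5%, and 45.9% and 53.9%, or 47.1% ± 1.13 against 54.3% ± 0.961 (n = 3, lower in 3 of 3 replicates, exact sign-flip permutation test p = 0.25). With only the 5'-most TSS of each gene in use the height ratio was 0.865 in place of 0.759. The nearest TSS was an internal one for 281 members (30.4%), against 26.2% of upstream peaks. For 746 members a single gene had a TSS within 500 bp, for 167 there were 2 genes and for 11 there were 3 or more.

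Many of these genes held more than 1 peak. Of the 875, 532 (60.8%, 57.5% to 64.1%) had at least 2 thresholded peaks between 500 bp before and 500 bp after the gene, against 43.8% of the genes of upstream peaks. The median gene length was 4666 bp downstream and 4154 bp upstream, and the part of length in this was not tested. The share of all protein-coding genes with at least 2 such peaks was not counted. Both a downstream and an upstream peak were assigned to 204 of the 875 genes (23.3%). Among all 13945 protein-coding genes, 2461 had an upstream peak. A single downstream member was found at 832 genes, 2 at 38, 3 at 4 and 4 at 1. That last gene was Stat92E, the transcription factor of JAK/STAT signalling, with members of signal 353, 151, 139 and 123 at 340, 489, 9 and 41 bp from the nearest of its 2 TSSs.

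There were 3 members each at CG18622, at Eip75B, a nuclear receptor of the ecdysone response, at Su(z)2, a Polycomb group protein, and at egh, a glycosyltransferase of glycolipid synthesis. At Eip75B the 3 lay 38, 203 and 59 bp downstream of internal TSSs, with 502, 214 and 175. Its strongest member had replicate signals of 87.7, 121 and 296 and replicate summits 50 and 57 bp downstream and 7 bp upstream. At egh the strongest member, 726, was intronic and 373 bp downstream, with replicate summits at 323, 394 and 349 bp. Several summits in 1 gene share a locus and are not independent of each other.

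Base composition differed between the sides. The median GC content of the 201 bases around the summit was 44.3% for the 924 and 38.8% for upstream peaks, and 35.8% between diverging promoters. It was 43.3%, 44.3% and 44.3% downstream and 38.3%, 39.3% and 38.8% upstream in the 3 replicates, a difference of 5.14 ± 0.287 percentage points in the same direction in 3 of 3 (exact sign-flip permutation test p = 0.25). Windows of that length placed 42 bp downstream of every annotated protein-coding TSS had a median of 43.3%, and windows 80 bp upstream 39.8%. Windows placed at those distances without regard to peaks thus differed in the same direction.

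The DRE and the Ohler 1 core, elements of broadly active promoters, were less frequent around downstream summits than around upstream ones in each replicate list, but not in each when the windows were centred on the TSS. Elements were searched as exact letters on both strands within 100 bp of the summit, and, after the data had been seen, also within 100 bp of the TSS. The DRE was found in 81 of the 924 (8.77%, 7.02% to 10.8%), in 10.9% of upstream peaks (9.78% to 12.1%, overlapping the members' interval) and in 15.4% of peaks between diverging promoters. Windows centred on all 19253 annotated TSSs held it in 6.45%, and windows 42 bp downstream of them in 5.15%. Within 50 bp of the summit in place of 100 bp, 4.55% of members held it. In the replicate lists the downstream and upstream shares were 9.23% and 11.5%, 8.63% and 9.98%, and 7.61% and 10.4%, or 8.49% ± 0.818 against 10.6% ± 0.806 (n = 3, lower in 3 of 3, exact sign-flip permutation test p = 0.25). When the windows were centred on the TSS of each peak instead, the DRE was in 11.9% of members (9.89% to 14.2%) and 10.4% of upstream peaks (9.27% to 11.6%). With this placement the order of the sides was reversed, again with overlapping intervals. The replicate lists then gave 11.9% ± 0.804 downstream and 10.5% ± 0.675 upstream, higher downstream in 3 of 3.

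The Ohler 1 core GGTCACAC was in 6.49% of members (4.99% to 8.28%), 10.1% of upstream peaks (8.99% to 11.3%) and 5.19% of windows 42 bp downstream of all TSSs. Over the replicates it was in 7.89% ± 1.18 downstream and 9.84% ± 0.51 upstream, lower downstream in 3 of 3. Centred on the TSS the shares were 7.47% and 11.0% in the thresholded list, and 9.89% ± 1.18 and 10.9% ± 0.611 over the replicates, lower downstream in 2 of 3. CGATA, the BEAF-32 sequence and a part of the DRE, was in 40.8% of members and 44.5% of upstream peaks (45.9% and 44.9% centred on the TSS), against 35.3% of the windows 42 bp downstream. The Ohler 7 element, CAGCNCTA or CATCNCTA, was in 7.68% and 10.1%, with 6.59% in those windows. Centred on the TSS, Ohler 7 was in 9.20% of members and 9.76% of upstream peaks. Over the replicates these TSS-centred shares were 9.81% ± 0.33 and 9.90% ± 0.263, higher downstream in 2 of 3.

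Around the summit, the DRE was found mostly in members near the TSS. A window around a summit moves off the TSS as the summit does, and past 100 bp downstream it no longer reaches the DNA before the TSS, so part of this is set by the window. The DRE was in 14.9% of members at 0 to 20 bp and 14.4% at 21 to 50 bp, but in 5 of 174 (2.87%) at 51 to 100 bp, 2 of 124 at 101 to 200 bp and 1 of 130 at 201 to 500 bp. Upstream peaks at 51 to 100 bp held it in 13.4%. In the replicate lists the downstream share was 14.3% ± 2.02 within 50 bp and 2.14% ± 0.736 beyond, and at 51 to 100 bp it was 4.03%, 3.33% and 4.69% downstream against 16.8%, 14.2% and 14.3% upstream. Groups did not overlap in either comparison, and both had the same sign in 3 of 3 replicates (exact sign-flip permutation test p = 0.25 each). In windows centred on the TSS, which do not move with the summit, the DRE share of members was 14.9%, 16.3%, 8.62%, 8.06% and 6.15% from the nearest distance class outward. At 51 to 100 bp it was then 8.62% downstream (4.91% to 13.8%) and 12.4% upstream, a value within the downstream interval. Around the summit GGTCACAC went from 9.25% and 11.2% in the 2 classes nearest the TSS to 4.60%, 0.806% and 0.769% in those beyond, and around the TSS from 9.61% and 11.6% to 5.17%, 3.23% and 3.08%. Other elements changed with distance as well. Around the summit CGATA went from 50.2% of members at 0 to 20 bp to 26.9% at 201 to 500 bp, CAGCTG from 21.7% to 10.8% and TATAAA from 18.1% to 30%, and the initiator hexamer was in 36.2% at 51 to 100 bp and 9.68% at 101 to 200 bp.

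DRE matches around downstream summits lay mostly toward the TSS. In the 81 members with a DRE its centre lay a median of 20.5 bp upstream of the TSS (quartiles 44.5 bp upstream and 10.5 bp downstream), and in 56 (69.1%) it was upstream of the TSS although the summit was not. It lay upstream of the summit in 67 of the 81 (82.7%). For upstream peaks with a DRE the centre lay a median of 45.5 bp upstream of the TSS and 2.5 bp downstream of the summit. Thus at CG17292 the summit was 2 bp downstream of the TSS and the printed DRE 32.5 bp upstream of it, and at wek they were 1 bp downstream and 37.5 bp upstream. GGTCACAC lay at a median of 4.5 bp downstream of the TSS in 60 members.

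The heptamer GAACCAG or GAACTAG showed another pattern. It was in 55 of the 924 (5.95%, 4.52% to 7.68%), in 4.09% of upstream peaks (3.39% to 4.90%) and in 3.52% of windows 42 bp downstream of all TSSs. In the replicates the downstream and upstream shares were 5.35% and 4.14%, 5.66% and 4.59%, and 5.58% and 4.19%, or 5.53% ± 0.161 against 4.31% ± 0.246 (n = 3, higher in 3 of 3, exact sign-flip permutation test p = 0.25). By distance its share was 4.27%, 3.26%, 5.75%, 8.87% and 11.5% of members from the class nearest the TSS outward. For upstream peaks the same classes gave 4.30%, 2.76%, 4.57%, 3.53% and 5.23%. At 51 to 100 bp the replicates gave 3.94% ± 0.506 downstream and 4.40% ± 0.291 upstream, higher downstream in 1 of 3 (exact sign-flip permutation test p = 0.5). Over the replicates the share of downstream peaks was 3.86% ± 0.34 within 50 bp and 7.33% ± 0.633 beyond, without overlap. Centred on the TSS, it was in 3.35% of members and 3.23% of upstream peaks, and in 0 of the 130 members at 201 to 500 bp, so the higher downstream share was seen around summits and not around start sites. Peaks over 500 bp from a TSS held it in 6.14%.

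Its position differed from that of the DRE. The centre of the heptamer was a median of 122 bp downstream of the TSS and 4 bp downstream of the summit, in windows that are centred on the summit and so fix much of the second value, and in 41 of the 55 members it was within 50 bp of the summit. At CG32767 and lace it lay 7 bp downstream and 10 bp upstream of the summit. At brat, with a signal of 1387 and replicate signals of 285, 348 and 762, the match lay nearer to the TSS, 5 bp upstream of it and 19 bp upstream of the summit. The other members among the 12 strongest held no match, Pect, CG17233, Dnz1 and CG9727 included.

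**Figure D4:**
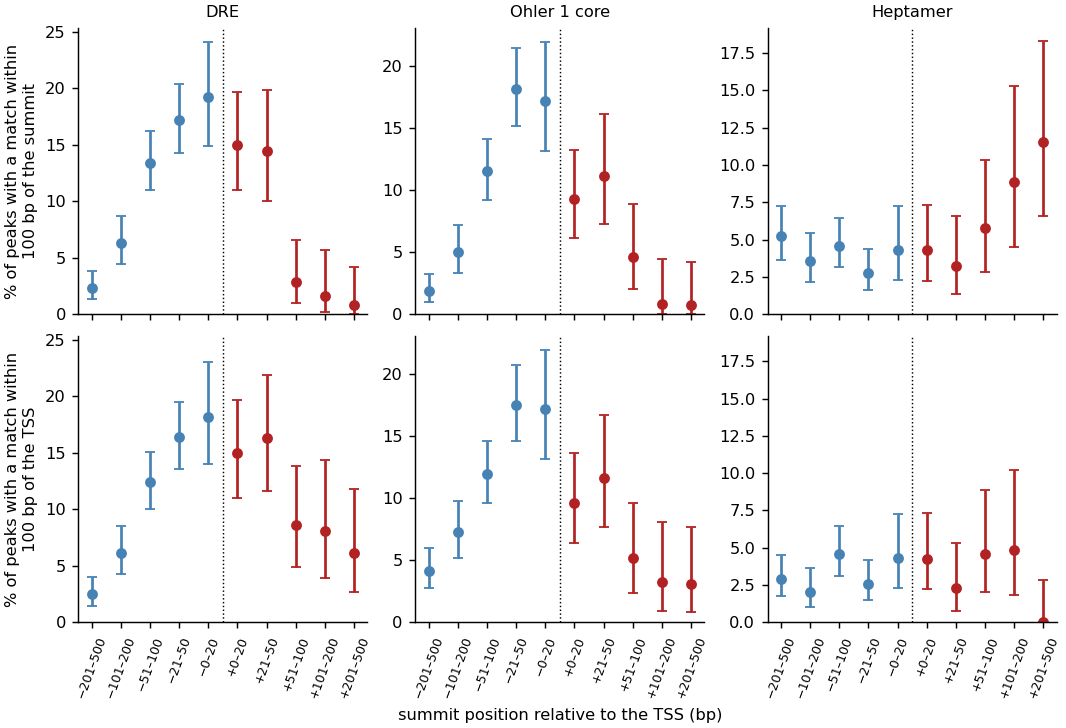
The panels give the percent of peaks with a match within 100 bp of the summit (upper row) or of the TSS (lower row), with 95% exact intervals, by summit position relative to the TSS (horizontal axes, bp, upstream in blue and downstream in red), for the DRE, the Ohler 1 core and the heptamer. At 51 to 100 bp downstream the DRE share is 2.87% around the summit and 8.62% around the TSS, and at 201 to 500 bp downstream the heptamer share is 11.5% around the summit and 0 around the TSS.

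Around the summit the initiator and TATAAA differed between the sides, and around the TSS their shares on the 2 sides lay within counting error of each other. The initiator hexamer, TCAGTT or TCAGTC, was in 26.7% of members (23.9% to 29.7%), 18.7% of upstream peaks and 13.7% of peaks between diverging promoters, but in 30.8% of windows 42 bp downstream of all TSSs. Over the replicates it was in 25.7% ± 0.814 downstream and 18.8% ± 0.328 upstream, higher in 3 of 3 (exact sign-flip permutation test p = 0.25). Within 100 bp of the TSS it was in 28.2% of members (261 of 924) and in 781 of the 2786 upstream peaks (26.4% to 29.7%). Restricted to the transcript strand and 10 bp around the TSS, it was in 12.2% of members (10.2% to 14.5%), 10.5% of upstream peaks, 3.29% of diverging ones and 10.2% of all TSSs. It was in 34 of the 174 members at 51 to 100 bp (19.5%, 13.9% to 26.2%) and in 9.96% at 0 to 20 bp.

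TATAAA was in 19.2% of members and 27.2% of upstream peaks. Windows at all TSSs had 25.3% at 42 bp downstream and 31.9% at 80 bp upstream. Over the replicates it was in 19.8% ± 0.969 downstream and 27.6% ± 0.727 upstream, lower in 3 of 3 (exact sign-flip permutation test p = 0.25), beside the higher GC content of the downstream windows. The part of GC content in this was not tested. Within 100 bp of the TSS, TATAAA was in 18.0% of members (15.5% to 20.6%) and 19.3% of upstream peaks (17.9% to 20.8%). GAGAG was in 27.1% of members, 25.4% of upstream peaks and 15.3% of peaks between diverging promoters, with 22.8% to 25.5% in the windows at all TSSs. Over the replicates it did not separate the sides, with 25.9% ± 1.19 downstream and 25.1% ± 2.00 upstream (exact sign-flip permutation test p = 0.5). The E-box CAGCTG was in 16.7% of members and 16.3% of upstream peaks, against 13.1% of the windows 42 bp downstream. Over the replicates it was in 16.6% ± 0.279 downstream and 15.5% ± 0.196 upstream, higher in 3 of 3 (exact sign-flip permutation test p = 0.25). Centred on the TSS it was in 18.8% ± 0.361 and 17.5% ± 0.492, also higher downstream in 3 of 3.

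Gene groups are given by how many of their members had a downstream promoter peak, beside the 6.27% of all protein-coding genes, with no test, because the groups were chosen with earlier results known. The share was highest in the Wnt pathway, with 7 of 28 genes (25%). They were the receptors fz2, fz3 and fz4, the ligand Wnt5, the destruction complex genes Apc and sgg, and arm, which encodes the β-catenin of the fly. Upstream peaks were assigned to 6 of the 28, and 17 had any thresholded peak within 500 bp. At fz3 the summit was 32 bp downstream of the TSS with signals of 77.5, 90.4 and 184 in the 3 replicates, at Apc 98 bp with 59.3, 35.1 and 203, and at fz4 25 bp with 66.9, 88.4 and 118. Replicate summits of all 3 genes were downstream in each replicate, and fz3 and fz4 held a DRE.

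Factors of insulators and core promoters had 5 of 21 (23.8%), namely Trl, pita, BEAF-32, Ibf2 and Trf2. An upstream peak was assigned to 7 of the 21, and 17 had any thresholded peak within 500 bp, against 2461 and 5985 of all 13945 genes, so this group was above the background on both sides of the TSS. Trl, the GAGA factor, had signals of 98.0, 103 and 243 at 109 bp downstream of an internal TSS. At pita, an insulator zinc finger protein, the replicate summits lay 3 bp upstream and 5 and 10 bp downstream, with signals of 49.3, 74.4 and 147. Trf2, a TBP-related factor, had no entry within 100 bp in replicate 1 and signals of 77.7 and 132 in replicates 2 and 3.

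Signalling and patterning groups had between 1 and 6 genes each. There were 6 of 41 patterning genes (hb, hry, dpp, sog, dl and hh), 4 of 30 in EGFR, FGFR and Ras signalling (Ras64B, cnk, Raf and aop), 3 of 22 in the TGF-β and BMP pathway (Smox, dpp and sog), 3 of 22 in the Hippo pathway (Mer, dco and sd), 3 of 27 in the ecdysone response (Eip75B, Eip78C and EcR) and 1 of 14 in the Hedgehog pathway (hh). The 3 of 20 on the Notch list were Nedd4, mam and wek, and wek is better known for Toll signalling. The ligand genes had low peaks. The BMP ligand gene dpp had signals of 24.9, 33.5 and 81.3, sog, a BMP antagonist, 17.1 and 75.3 in replicates 1 and 3, and the Hedgehog ligand gene hh 29.8 and 62.4 in the same replicates, and neither sog nor hh had an entry within 100 bp in replicate 2. The pair-rule gene hry was higher, with 46.5, 117 and 152.

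The housekeeping groups named next had shares from 6.85% to 11.3%, without a test. The ecdysone response (11.1%) and Hedgehog (7.14%) groups lay in the same range. Not all groups of this kind did: proteasome genes (0 of 48) and replication and cell cycle genes (2 of 43, 4.65%) lay below it and below the 6.27% of all genes. Cytoplasmic ribosomal proteins had 10 of 92 (10.9%), translation factors 6 of 53 (11.3%), respiratory chain and ATP synthase subunits 7 of 91 (7.69%), mitochondrial ribosomal proteins 5 of 73 (6.85%) and Mediator subunits 2 of 29. Of the 92 cytoplasmic ribosomal protein genes, 42 had an upstream peak and 29 a peak between diverging promoters. The downstream ones were thus the smallest class, but this order is not particular to the group. Among all 13945 protein-coding genes, 2461 had an upstream peak, 1405 one between diverging promoters and 875 a downstream one. RpL24 had the strongest of the 10 ribosomal ones, with signals of 261, 229 and 580 and summits 14, 5 and 7 bp downstream. UQCR-14, a subunit of respiratory complex III, had 126, 133 and 302 at 4, 5 and 20 bp and held a DRE, and ATPsynB, a subunit of ATP synthase, had 117, 124 and 221 at 10, 10 and 6 bp. The summits of RpL24, UQCR-14 and ATPsynB thus lay within 20 bp downstream of the TSS in every replicate.

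Of chromatin regulators in the Polycomb and Trithorax groups 4 of 31 had a downstream peak, and ph-p, a Polycomb group protein, was the strongest gene of all these groups with 267, 273 and 734 at 435, 438 and 409 bp into its 5' UTR. Muscle genes had 5 of 29, chaperones 4 of 34, spliceosome genes 3 of 33, neuronal genes 3 of 47 and replication and cell cycle genes 2 of 43. The integrin gene if had 46.3, 53.2 and 130, and Fas2, a neuronal adhesion molecule, 50.6, 79.5 and 208. B52, a splicing factor of the SR family, had summits 44 bp upstream and 10 and 8 bp downstream. No downstream peak was assigned to any of 48 proteasome, 8 Hox or 140 cuticle and secretion genes. Of these, 9 proteasome genes had an upstream peak and 10 a peak between diverging promoters, whereas 1 of the 140 cuticle and secretion genes and 1 of the 8 Hox genes had any thresholded peak within 500 bp.

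**Figure D5:**
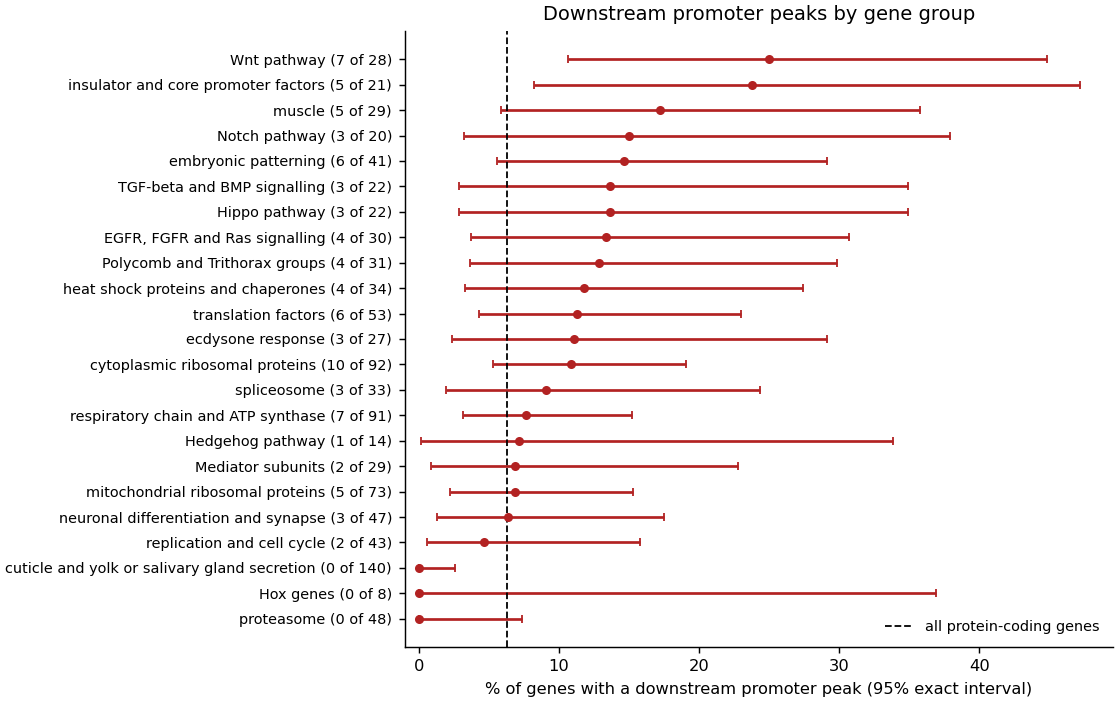
Each point is the percent of genes of a group with a downstream promoter peak (horizontal axis, with 95% exact intervals for counting error), the number of genes stands beside the group's name (vertical axis), and the dashed line marks all 13945 protein-coding genes at 6.27%. The Wnt pathway, at 25%, and the insulator and core promoter factors, at 23.8%, stand farthest to the right, and proteasome, Hox and cuticle and secretion genes are at 0.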

How the data were processed

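The authors deposited peak lists of CG15514-eGFP ChIP-seq from 3 replicates. Per the deposited descriptions, each replicate list of 30000 entries, peaks and background together, came from that replicate and a control, and the thresholded list from IDR, which keeps peaks of reproducible rank. The signal value of a peak was set by the authors' caller and has no deposited scale between lists. The −log10 q value is capped in the deposited lists and was not used to rank. The summit position was taken as deposited, and 4 summits lay outside their interval. The aligner, the caller, software versions and the reproducibility cutoff were not given in the sources used here. The dm3 lists and the pooled list were not used.

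Start sites came from Ensembl 115 annotation (FlyBase 6.54) on the Release 6 genome, all protein-coding transcripts counted, and sequences from the RefSeq copy of that genome. A tie for the nearest TSS between opposite sides occurred at 1 summit and went to the lower gene ID. A member counted as supported where a replicate list, taken to its 8708 strongest entries, had a summit within 100 bp. For values per replicate, the rule was applied to those entries after leaving out the top 202, the number with a signal of 5000 or more in the thresholded list. Shares have 95% Clopper-Pearson intervals, and the 2 sides were compared by an exact two-sided sign-flip permutation test over the replicates in 35 measures. None of the 35 can fall below 0.25, raw or adjusted. Of names in the 23 gene groups, 25 were matched by synonym and 3 to no gene. Python 3.11.15, numpy 2.4.6, pandas 2.3.3 and scipy 1.17.1 were used, and the class, support and motif steps were tested on simulated data.

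The members and gene groups were chosen with earlier results of these data known. Named were the 12 members of highest signal, those at the rule's limits, the median and the weakest member, the 5 genes with the most members, up to 3 genes per group by signal and, per element, the 3 strongest members holding it among the arms whose sequence is shown. Other genes of a group were named after their values were seen. Alternatives varied the distance and signal limits, the threshold, the start sites, non-coding genes, summits near the TSS, the support distance, the motif window, the replicates and, after the data had been seen, the placement of the motif window on the TSS.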

Additional observations from a re-analysis of the deposited data

How the results depend on the processing

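No paired analysis was possible because the study has 1 group of samples, and the sides of the TSS were compared within each replicate. Without each replicate in turn, taking members supported in both others, there were 572 to 663 members at 3.99% to 4.58% of genes. These were 61.9% to 71.8% of the 924, and 10.6% to 11.8% of them held the DRE. With upstream peaks chosen in the same way, the height ratio of downstream to upstream peaks was 0.800 to 0.840. The side was taken over all of the 924 with an entry in both other lists, supported or not, and 70.4% to 76.5% of these kept it. In the strongest 50% of thresholded peaks there were 363 members at 2.55% of genes, with a ratio of 0.912, support of 95.6%, 69.9% on the same side and a DRE in 13.2%. With summits under 50 bp from the TSS left out, there were 432 members at 3.00% of genes, 94.4% kept their side and 1.85% held the DRE. With only the 5'-most TSS of each gene, the ratio was 0.865, support 65.4%, the same side 74.0% and the DRE 10.8%. Within 250 bp, 62.2% kept their side and 10.2% held the DRE. Support was 39.6% within 50 bp and 70.7% by overlap of intervals. The DRE was in 4.55% of windows of 50 bp and 11.6% of windows of 200 bp to each side, and, in a setting chosen after seeing the data, in 11.9% of windows centred on the TSS. The main values were 924, 6.27%, 0.759, 57.3%, 66.0% and 8.77%. The ratio stayed below 1 in every setting run. Smaller numbers under stricter settings follow from their construction, and other causes were not tested. Over the settings run for the main values, 36 results moved and 24 did not, by limits set for each kind of value. Of the settings for the other elements, 23 moved a share and 87 did not, by counting intervals. The lists give no read depth, so the precision of a single height is unknown, and within 50 bp of the TSS the spread of summits between replicates limits the call of the side.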

Other observations

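The 924 downstream peaks were spread over the chromosome arms as other promoter peaks were. There were 162 on 2L, 200 on 2R, 193 on 3L, 204 on 3R, 2 on chromosome 4 and 163 on X. As a share of the single-direction promoter peaks of an arm, they made up 24.2% on 2L, 25.4% on 2R, 26.4% on 3L, 24.5% on 3R, 22.2% on chromosome 4 (9 peaks in all) and 23.9% on X.

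The remaining elements were found at downstream summits about as often as in windows 42 bp downstream of all TSSs. The core of the CTCF motif, AGGNGGC, was in 7.03% of members (5.47% to 8.88%) and 6.57% of upstream peaks, against 6.49% of those windows. Over the replicates it was in 7.46% ± 0.509 downstream and 6.16% ± 0.173 upstream, higher in 3 of 3 (exact sign-flip permutation test p = 0.25). Centred on the TSS it was in 7.81% ± 0.243 and 6.39% ± 0.24, again higher downstream in 3 of 3. CAGGTAG, the sequence bound by Zelda, an activator of the early zygotic genome, was in 10 members, or 1.08%, against 1.09% of those windows. Upstream peaks held it in 0.538%, and the downstream share was the higher one in 2 of 3 replicates. The E-box CACGTG was in 3.46% of members, 2.94% of upstream peaks and 3.05% of the windows.

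Gene length did not separate the sides in the replicate lists, while the thresholded list had medians of 4666 bp downstream and 4154 bp upstream. The median length of the gene was 4121, 4340 and 4661 bp for downstream peaks and 4148.5, 4460.5 and 4354 bp for upstream peaks in replicates 1, 2 and 3 (exact sign-flip permutation test p = 1).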
